A study of Mus musculus with 16 samples.

Results

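The comparison set OSCE 13, a mouse induced pluripotent stem (iPS) line, against R1 mouse embryonic stem (ES) cells. It used the 2 arrays titled for the line and the 2 arrays titled for the ES cells, 4 of the 16 arrays of the study. Each array measured total RNA on an Illumina MouseWG-6 version 1.1 BeadChip, 2 arrays per group. The other groups were the iPS lines OSCK, OSCE 8, OSE T8 and OSE T9, and 2 types of mouse embryonic fibroblast (MEF), with a green fluorescent protein transgene driven by an Actin or a Pou5f1 promoter. The labels do not spell out the letters of the line names, which in common use are the initials of Oct4 (the product of Pou5f1), Sox2, c-Myc and Esrrb, with K for Klf4. The series concerns cells reprogrammed with Esrrb, an orphan nuclear receptor of ES cells. ES and iPS cells alike grew on MEF feeders treated with mitomycin C, in 15% serum with leukemia inhibitory factor. OSCE 13 is 1 line, so its arrays, labelled as biological replicates, show the spread within a line and not between lines. The fibroblasts grew in 15% serum without mention of feeders.

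The genes described were 3 lists of autosomal genes. The germ line list held 129 genes, of which 124 had a probe and 65 passed the filter on dim probes. The trophectoderm list held 93 genes, 88 with a probe and 59 tested. The epithelial list held 115 genes, 114 with a probe and 94 tested. Counts below are over tested members, so the 59, 29 and 20 members with probes too dim for the filter are left out of them. Among the defining members, Dazl, Stra8, Sycp3, Mael, Elf5, Hand1 and Epcam were below the filter, and Cldn6 had no probe used here.

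Germ line genes serve the making of eggs and sperm: primordial germ cell factors, the piRNA pathway that silences transposons, meiotic cohesins and synaptonemal proteins, and products stored in the oocyte. Several are also active in cultured pluripotent cells. The trophectoderm is the outer layer of the blastocyst and founds the placenta. Epithelial genes encode junctions, keratins and their regulators, and switching them on is an early step in turning fibroblasts into iPS cells.

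Levels are normalized probe signals on a log2 scale, and differences are OSCE 13 minus ES cells in the same unit. The lowest signal of any detected probe lay between 4.89 and 5.05 over the arrays, so levels near or under 5 are background. A gene was called at a Benjamini-Hochberg adjusted p under 0.05 in limma's moderated test over all 15635 genes. ES cells and OSCE 13 lay on different slides, so slide and group cannot be told apart in this contrast. OSE T8 and OSE T9 shared both slides with OSCE 13. OSCE 13 against the mean of those lines was therefore the comparison within slides, though it uses the same OSCE 13 arrays.

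Between 35.5% and 38.8% of probes were detected on an array. The Pearson correlation across genes, which are not independent replicates, was 0.994 between the ES arrays, 0.995 between the OSCE 13 arrays and 0.976 between the group means. Against ES cells, 3041 genes were called (19.4% of those tested), 1529 higher in OSCE 13 (9.78%) and 1512 lower (9.67%), with a median difference of -0.01. Against OSE T8 and OSE T9, 3154 were called (20.2%), 1562 higher (9.99%) and 1592 lower (10.2%). With median scaling in place of quantile normalization, that second split was 1565 higher and 711 lower. All 6 shares are the background against which the members' counts are read.

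Of the 65 germ line genes tested, 15 were higher in OSCE 13, 16 were lower and 34 were not called, against 9.78% and 9.67% of all genes. The median difference of the list was 0.07. The germ line genes that were called thus rose and fell in nearly equal number. Of 20 oocyte products with a probe, 6 passed the filter, of which 5 were higher and 0 were lower. Padi6 and Gdf9, among those 5, were detected on no ES array, so a fall could hardly have been called in them. Of 13 genes of the piRNA pathway, 4 were higher and 4 lower. Of 12 primordial germ cell factors, 3 were higher and 6 lower, and of 18 meiotic genes, 3 were higher and 4 lower. Of 16 sperm and testis products, 0 were higher and 2 lower by their brightest probes. By the mean of all probes Tuba3a, a tubulin of the testis, was called higher (difference 0.74, adjusted p = 0.000552) and Ldhc, 1 of the lower products, was not called (adjusted p = 0.219). With 1 array left out, the number of germ line calls ranged from 20 to 27, the lowest without OSCE 13 replicate 2. The call of 11 of the 15 higher and 8 of the 16 lower members held under every alternative setting and with each array left out.

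**Figure D1:**
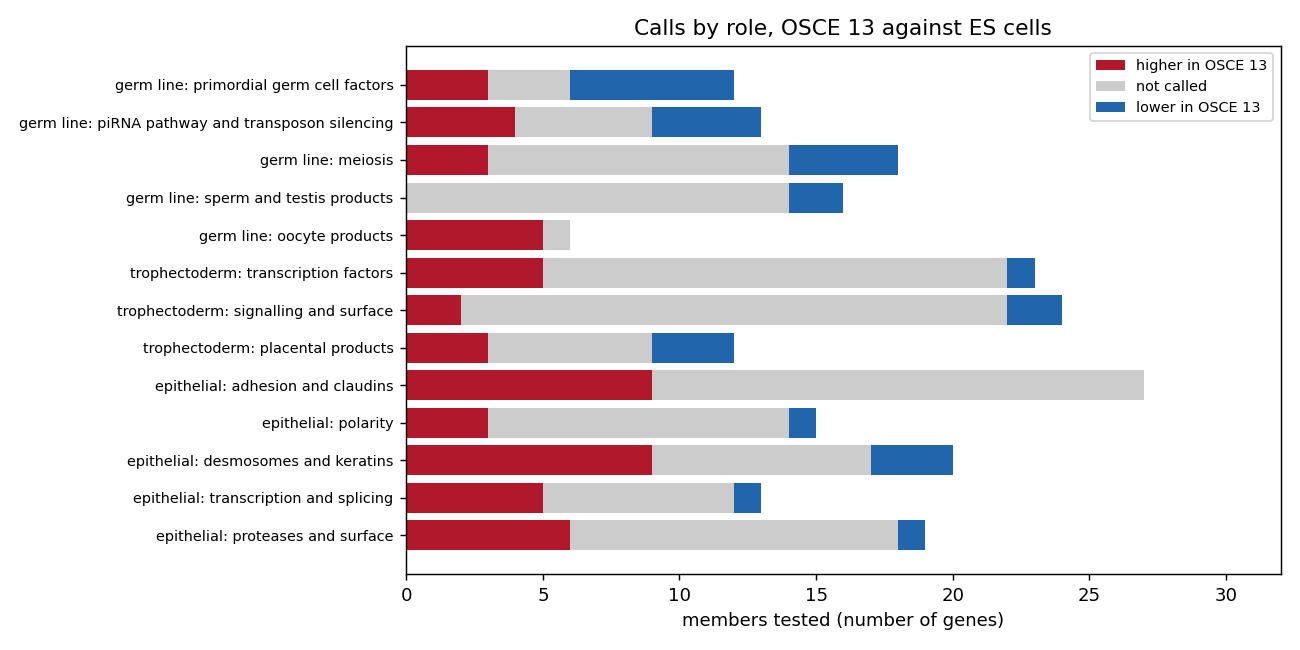
Number of tested members by list and role (horizontal axis, genes), divided into those called higher in OSCE 13 than in ES cells, those not called and those called lower. Of 6 oocyte products that passed the filter, out of 20 with a probe, 5 were higher. Of 27 adhesion genes and claudins 9 were higher and 0 lower.

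The largest rise among the members was that of Dppa3 (Stella, chromosome 6), a maternal factor that protects the zygote's methylation and an early germ cell marker. Its level was 6.17 and 6.02 on the ES arrays and 10.01 and 9.99 on the OSCE 13 arrays. The groups lay far apart, a difference of 3.90 ± 0.15 (SE, n = 2 arrays per group) or 15.0-fold (adjusted p = 1.53e-10). The ES cells stood alone among the pluripotent groups in this gene. Dppa3 lay at 9.57 and 9.66 in OSE T8, at 8.99 and 8.54 in OSE T9, at 9.44 and 9.29 in OSCK and at 8.61 and 8.36 in OSCE 8. The 4 MEF arrays were between 4.30 and 4.50, at background. OSCE 13 was still above the OSE lines by 0.81 ± 0.13 (adjusted p = 0.000357).

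Nanos3 (chromosome 8), an RNA-binding protein that keeps primordial germ cells alive, was at 4.71 and 4.96 in ES cells and at 6.31 and 5.65 in OSCE 13. It was detected on 1 of the 2 ES arrays and on both OSCE 13 arrays, and rose by 1.15 ± 0.18 (adjusted p = 0.000264). Sohlh2, a transcription factor of early oocytes and spermatogonia, rose by 0.59 ± 0.15, a call lost without ES replicate 1 (adjusted p = 0.165) or OSCE 13 replicate 2 (adjusted p = 0.107). The other called germ cell factors fell. Gfra1, the GDNF co-receptor of spermatogonial stem cells, was at 6.53 and 6.52 in ES cells and at 5.68 and 5.53 in OSCE 13, a difference of -0.92 ± 0.10 (adjusted p = 1.63e-05). Kit, the stem cell factor receptor, differed by -0.73 ± 0.13 and the RNA-binding Dnd1 by -0.77 ± 0.14. Rarg, a retinoic acid receptor, differed by -0.77 ± 0.21, Ifitm3 by -0.65 ± 0.13 and Ifitm1 by -0.45 ± 0.10. Rarg lost its call without ES replicate 1 (adjusted p = 0.144) or OSCE 13 replicate 2 (adjusted p = 0.243), and Ifitm1 without OSCE 13 replicate 2 (adjusted p = 0.0615). Both Ifitm genes mark early germ cells and are also induced by interferon. They are neighbours on chromosome 7, and a second bright probe of Ifitm1 differed by 0.00 where the one used differed by -0.45. Under median scaling neither was called (adjusted p = 0.0773 for Ifitm3 and 0.187 for Ifitm1). Of the 8 largest falls of all genes, several were in genes known to be induced by interferon (Ccl5, Usp18, Ifit3, Cxcl10, Irgm2 and Igtp), beside Cxcl1 and Cenpq, and no list of such genes was tested. Ccl5, a chemokine, was at 9.87 and 10.25 in ES cells and not detected in OSCE 13, at least 33.3-fold lower (adjusted p = 1.98e-12), and Usp18, which removes ISG15 from proteins, differed by -5.46 ± 0.23. The part of interferon signalling in the Ifitm differences was not tested.

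In the piRNA pathway, Fkbp6 (chromosome 5), an immunophilin needed for piRNA loading, was at 5.98 and 5.91 in ES cells and at 7.95 and 7.99 in OSCE 13. Its difference was 2.02 ± 0.11, or 4.06-fold (adjusted p = 5.41e-09), and it was above the OSE lines by 0.99 ± 0.09. Gpat2 (chromosome 2), a mitochondrial acyltransferase of piRNA biogenesis, was at 7.42 and 7.41 in ES cells and at 8.90 and 8.91 in OSCE 13, a difference of 1.49 ± 0.14 (adjusted p = 2.77e-06). In OSE T8 it was at 6.15 and 6.42 and in OSE T9 at 5.98 and 5.85, so that OSCE 13 lay above ES cells and the OSE lines below them. Within slides the difference from the OSE lines was 2.81 ± 0.12 (adjusted p = 1.58e-09), 2.83 on the first shared slide and 2.78 on the second. In OSCK and OSCE 8 Gpat2 was not detected, with levels between 4.43 and 4.90. Piwil2, the PIWI protein Mili, rose by 1.01 ± 0.12, from 6.10 and 6.14 to 7.29 and 6.98. Tex19.2, a mammal-specific protein of the germ line, rose by 0.65 ± 0.14.

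Others of the pathway fell. Ddx25 (chromosome 9), an RNA helicase of spermatids, was at 9.02 and 9.01 in ES cells and at 7.82 and 7.88 in OSCE 13, 2.24-fold lower (difference -1.17 ± 0.12, adjusted p = 4.9e-06). It was at 8.83 to 9.01 on the 4 OSE arrays, close to the ES cells. Gtsf1, which assists PIWI proteins in silencing, was at 5.70 and 6.05 in ES cells and not detected on either OSCE 13 array, at least 1.83-fold lower (adjusted p = 0.000811). Tdrkh, a tudor protein, and Gtsf1l differed by -0.58 ± 0.17 and -0.38 ± 0.12. Tdrkh lost its call without ES replicate 1 or either OSCE 13 array (adjusted p from 0.0684 to 0.278), and Gtsf1l without any 1 array (adjusted p from 0.0805 to 0.214). Tdrd12, another tudor protein of the pathway, was not called, at 9.65 and 9.73 in ES cells against 9.34 and 9.48 (difference -0.28 ± 0.12). Ddx4, the vasa helicase, was near background in both groups, at 4.71 and 4.83 against 4.79 and 4.98.

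Among oocyte products, Zp3 (chromosome 5), a glycoprotein of the egg coat, was at 6.18 and 6.07 in ES cells and at 7.85 and 7.57 in OSCE 13. The rise was 1.59 ± 0.14 (adjusted p = 9.76e-07). Khdc3 (chromosome 9), of the maternal complex under the egg cortex, went from 8.37 and 8.28 to 9.68 and 9.59, a rise of 1.31 ± 0.12 (adjusted p = 1.16e-06). Its partner Ooep, already bright in ES cells at 12.61 and 12.64, was at 13.21 and 13.33, a rise of 0.65 ± 0.12 (adjusted p = 0.00167). OSCE 13 exceeded the OSE lines by 1.92 in Khdc3 and by 0.90 in Ooep. Padi6, of the same complex, was not detected in ES cells and at 5.64 and 5.48 in OSCE 13, at least 1.53-fold higher (adjusted p = 0.000607). The growth factor Gdf9 was detected on no ES array and 1 of the 2 OSCE 13 arrays, at least 1.18-fold higher, and lost its call without ES replicate 2 (adjusted p = 0.0536) or OSCE 13 replicate 2 (adjusted p = 0.113). It was higher in the OSE lines than in OSCE 13 (difference -0.67, adjusted p = 0.00112).

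Among meiotic genes the cohesin subunit Smc1b (chromosome 15) went from 5.61 and 5.88 to 6.50 and 6.57, a rise of 0.79 ± 0.14 (adjusted p = 0.000712). On the 4 OSE arrays it was between 4.39 and 4.83, and OSCE 13 exceeded them by at least 2.93-fold. Meioc and Hsf2bp, factors of meiotic prophase and recombination, were not detected in ES cells and reached only 5.10 to 5.20 in OSCE 13. Their bounds were 1.18-fold and 1.11-fold, and both calls were lost without any 1 of the 4 arrays (adjusted p from 0.133 to 0.168 for Meioc and from 0.077 to 0.0816 for Hsf2bp). Syce3, a synaptonemal complex protein, was at 5.14 and 5.62 in ES cells and not detected in OSCE 13, at least 1.3-fold lower (adjusted p = 0.000236). Tex14, of the bridges between germ cells, differed by -0.86 ± 0.17, 4930432K21Rik by -0.58 ± 0.14 and the cohesin Rec8 by -0.45 ± 0.14. The call of 4930432K21Rik was lost without ES replicate 2 (adjusted p = 0.107) or OSCE 13 replicate 2 (adjusted p = 0.0914), and that of Rec8 without any 1 array, with adjusted p from 0.0528 to 0.25. The testis products called were Clgn, a chaperone of spermatogenesis at 6.27 and 6.27 in ES cells against 5.34 and 5.20 (adjusted p = 6.72e-05), and Ldhc, the sperm lactate dehydrogenase (difference -0.40 ± 0.11), whose call was lost without ES replicate 1 (adjusted p = 0.11) or OSCE 13 replicate 2 (adjusted p = 0.127).

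Of the 15 germ line genes that were higher, 12 were higher on both OSCE 13 arrays than on each of the 14 other arrays of the study, the fibroblasts included. These were Dppa3, Fkbp6, Gpat2, Hsf2bp, Khdc3, Meioc, Nanos3, Ooep, Smc1b, Sohlh2, Tex19.2 and Zp3. Hsf2bp, Meioc and Sohlh2 lost their calls when single arrays were left out, and Hsf2bp and Meioc were near background. Of all 1529 genes higher than in ES cells, 427 had that position, or 27.9%. All MEF arrays lay below OSCE 13 in 14 of the 15, against 913 of the 1529, so the comparison is not like for like. Of the 16 that were lower, 0 were below every other array, against 11.4% of all genes that were lower. All MEF arrays lay below OSCE 13 in 10 of the 16, against 462 of the 1512 genes that were lower. Those 10 could not be below every other array, so these shares cannot be compared. Against the OSE lines, 20 germ line genes were higher in OSCE 13 and 5 lower, beside the backgrounds of 9.99% and 10.2%, and 14 were higher in both contrasts. The contrasts share the OSCE 13 arrays, and 738 of all genes were higher in both.

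**Figure D2:**
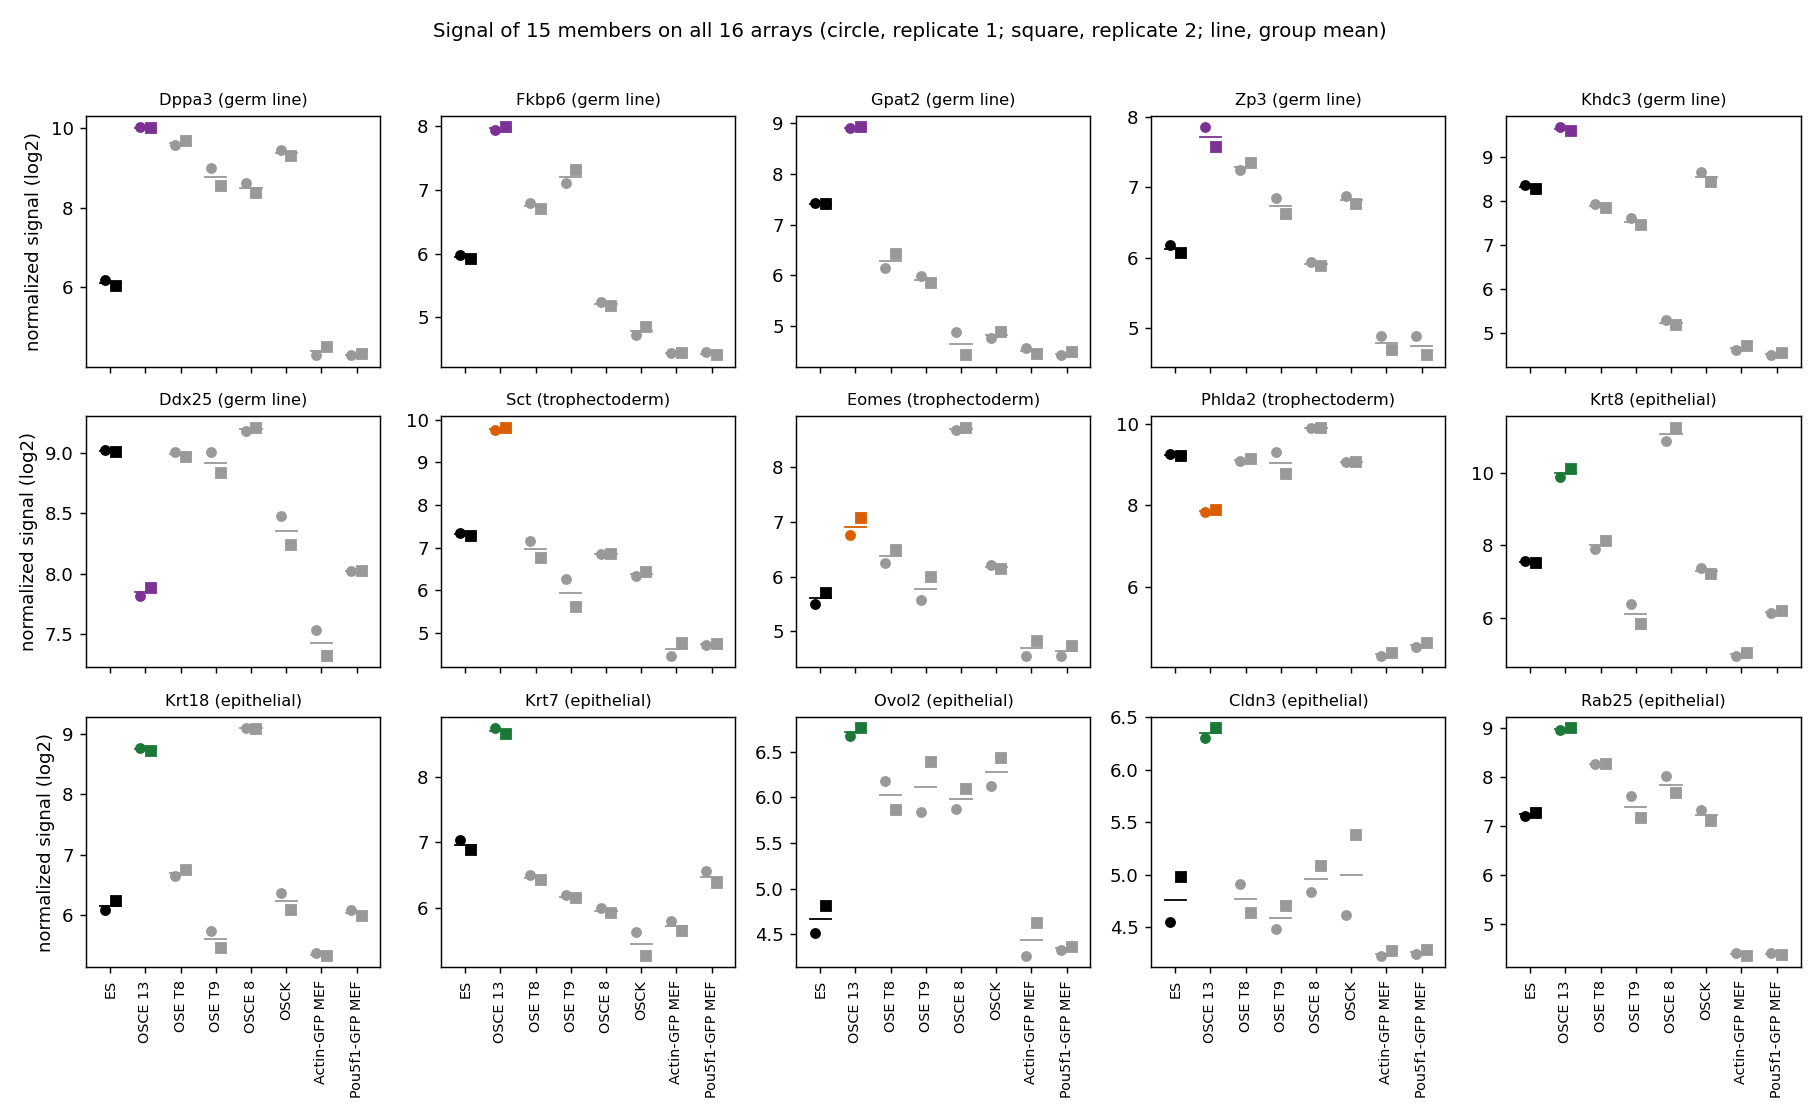
Normalized signal (vertical axes, log2, each panel with its own range) of 15 members on all 16 arrays, by group. Circles are replicate 1, squares replicate 2 and lines the group mean. OSCE 13 is in colour and ES cells in black. Dppa3 lay at 10.01 and 9.99 in OSCE 13 and at 6.17 and 6.02 in ES cells.

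Promoters of germ line genes are known targets of the polycomb repressor PRC1.6, whose MGA-MAX and E2F6 subunits read the letters CACGTG and TCCCGC. The promoters of 3 members that rose are shown because they hold these letters, which are in capitals with any match to the AP-2 letters GCCNNNGGC or the ZEB and SNAI letters CACCTG; the sequences are from RefSeq (GRCm38.p6), from 250 bases before the start to 50 after it. Fkbp6 has 2 annotated starts, of which 1 is shown.
Fkbp6, chr5:135349995-135350294, minus strand: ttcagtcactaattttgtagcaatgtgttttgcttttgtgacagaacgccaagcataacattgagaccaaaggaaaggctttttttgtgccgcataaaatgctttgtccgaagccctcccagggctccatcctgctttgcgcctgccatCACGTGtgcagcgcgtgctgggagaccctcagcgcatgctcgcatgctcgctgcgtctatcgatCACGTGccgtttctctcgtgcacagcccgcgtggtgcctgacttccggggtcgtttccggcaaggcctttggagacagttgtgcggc
Zp3, chr5:135979855-135980154, plus strand: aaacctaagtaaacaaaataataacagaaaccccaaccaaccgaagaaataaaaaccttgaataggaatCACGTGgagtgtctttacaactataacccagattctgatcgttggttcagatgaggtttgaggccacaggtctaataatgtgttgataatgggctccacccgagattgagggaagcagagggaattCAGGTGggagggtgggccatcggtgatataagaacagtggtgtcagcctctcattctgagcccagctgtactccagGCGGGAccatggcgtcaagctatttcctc
Gpat2, chr2:127424949-127425248, plus strand: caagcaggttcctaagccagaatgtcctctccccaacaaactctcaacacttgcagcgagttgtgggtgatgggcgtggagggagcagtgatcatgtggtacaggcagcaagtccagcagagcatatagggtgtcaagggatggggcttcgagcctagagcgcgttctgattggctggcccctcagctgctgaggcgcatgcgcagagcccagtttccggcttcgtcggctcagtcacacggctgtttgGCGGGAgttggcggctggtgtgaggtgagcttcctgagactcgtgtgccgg
Fkbp6 held CACGTG at 2 places and Zp3 at 1, and Gpat2 and Zp3 held TCCCGC on the opposite strand (GCGGGA). Searched on both strands, CACGTG was in 3 of the 13 promoters found for 12 of the 15 higher germ line genes (23.1%), in 5.56% of the promoters of the lower ones and in 14.6% of those not called. It was in 9.24% of the promoters of all autosomal genes tested and in 7.14% of all autosomal promoters. Promoters were counted per annotated start, so Fkbp6 makes up 2 of the 13, and the 3 with CACGTG may come from fewer genes. TCCCGC was in 38.5% of the promoters of higher germ line genes, 38.9% of those of lower ones and 33.4% of those of all autosomal genes tested. A match describes the letters and no bound factor. Of 28 genes listed as repressors of germ line genes, 4 were called, against 19.4% of all genes. Of these 1 was higher and 3 were lower, and the median of the list was -0.08. Pcgf6, the higher 1, and Setdb1 lost their calls without any 1 array, and Trim28 without ES replicate 1 or OSCE 13 replicate 2. The list also holds genes of DNA and histone methylation, Tet2 among them. Tet2 is 1 of the 3 lower members, so the 3 are not all repressors. Tet2, an enzyme that oxidizes methylated cytosine and the member of that list with the largest difference, was at 9.94 and 10.20 in ES cells and at 8.40 and 8.59 in OSCE 13 (difference -1.58 ± 0.17, adjusted p = 1.04e-05). A second, dimmer probe of Tet2 differed by -0.49. On the 4 OSE arrays Tet2 lay between 9.92 and 10.70.

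Of 59 trophectoderm genes tested, 10 were higher, 6 were lower and 43 were not called, with a median difference of 0.06. The share called was 16 of 59, against 19.4% of all genes. By role, 5 of 23 transcription factors were higher and 1 lower, 2 of 24 signalling and surface genes were higher and 2 lower, and 3 of 12 placental products were higher and 3 lower. Cdx2, a homeobox factor that founds the trophectoderm, was at 5.52 and 5.48 in ES cells and at 5.61 and 5.52 in OSCE 13, where OSCE 8 had 7.43 and 7.26. Gata3 was at 6.03 and 5.89 against 6.10 and 5.94. Neither was called. Gata2 was at 6.88 and 6.84 against 7.29 and 7.13, a difference of 0.36 that just missed the threshold (adjusted p = 0.0514) and passed it with offset 50, without background correction, without the filter on dim probes or by the mean of all probes (adjusted p from 0.0324 to 0.0431). Tfap2c (AP-2 gamma) was at 10.76 and 10.86 against 10.73 and 11.01 by its brightest probe, but 2 dimmer probes differed by 0.78 and 0.79, and the mean of all its probes was called (difference 0.54, adjusted p = 0.00332).

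The member with the largest rise was Sct (secretin, chromosome 7), a peptide hormone listed among placental products. It was at 7.35 and 7.28 in ES cells and at 9.77 and 9.82 in OSCE 13, a rise of 2.48 ± 0.19 or 5.58-fold (adjusted p = 2.22e-07). On the 4 OSE arrays Sct was between 5.60 and 7.17, and the difference within slides was 3.34 ± 0.16 (adjusted p = 3.95e-09). Sct alone of the 10 higher trophectoderm genes lay above all 14 other arrays. Eomes (chromosome 9), a T-box factor of trophoblast and also of the primitive streak, went from 5.50 and 5.70 to 6.75 and 7.06, a rise of 1.30 ± 0.16 (adjusted p = 3.83e-05). OSCE 8 had more, at 8.68 and 8.72. Of 16 mesoderm and streak genes, 8 were higher and 0 lower. Among them the T-box factor T was not detected in ES cells and at 7.02 and 7.21 in OSCE 13, at least 4.5-fold higher (adjusted p = 1.2e-08), and Fgf5, a growth factor of the epiblast, rose by 2.72 ± 0.16. Whether the Eomes signal belonged to trophoblast or streak cells was not tested.

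Aqp3, a channel for water and glycerol, was detected on 1 of the 2 ES arrays and rose by 1.24 ± 0.13 (adjusted p = 8.94e-06). The placental genes Rtl1 and Peg10, derived from retrotransposons and imprinted, were higher by 0.93 ± 0.18 and by at least 1.54-fold. Bhlhe40, a basic helix-loop-helix repressor, rose by 0.68 ± 0.12, Satb1, a chromatin organizer, by 0.65 ± 0.14, Sp6 by 0.92 ± 0.12, Ly6a by 0.51 ± 0.12 and Tead2 by 0.47 ± 0.14. A second probe of Sp6 differed by 0.11, and the mean of its probes was not called (adjusted p = 0.068). Satb1 lost its call without ES replicate 1 (adjusted p = 0.0532), Ly6a without ES replicate 2 (adjusted p = 0.0685) or OSCE 13 replicate 2 (adjusted p = 0.0765), and Tead2 without ES replicate 1 or 2 or OSCE 13 replicate 1 (adjusted p from 0.0936 to 0.247). Placental genes also fell. Mmp9, a gelatinase of invading trophoblast, was at 7.26 and 7.20 in ES cells and at 5.59 and 5.77 in OSCE 13, 2.92-fold lower (difference -1.55 ± 0.18, adjusted p = 1.88e-05). Phlda2, an imprinted gene that restrains placental growth, was at 9.26 and 9.22 against 7.83 and 7.88, 2.61-fold lower (adjusted p = 4.77e-06). Phlda2 lay between 8.78 and 9.31 on the OSE arrays. Cyp11a1, the first enzyme of steroid hormone synthesis, differed by -0.60 ± 0.11 (adjusted p = 0.00117), and a second probe of it by -0.12. The mean of both probes was not called (adjusted p = 0.0974). The calls of Tead1 (-0.53), Flt1 (-0.38) and Nf2 (-0.37) were each lost without any 1 array, with adjusted p from 0.0647 to 0.213.

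Against the OSE lines, 23 trophectoderm genes were higher in OSCE 13 and 6 lower (backgrounds 9.99% and 10.2%), and 4 were higher in both contrasts. Gata3 and Tfap2c were among those above the OSE lines, by 0.98 and 0.85 (adjusted p = 7.5e-05 and 0.000544), at levels near those of the ES cells. The summed linear level of the 59 genes was 35491 and 34663 on the ES arrays, 36352 and 36566 on the OSCE 13 arrays, 29116 to 30854 on the OSE arrays and 40859 to 42242 on the MEF arrays.

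**Figure D3:**
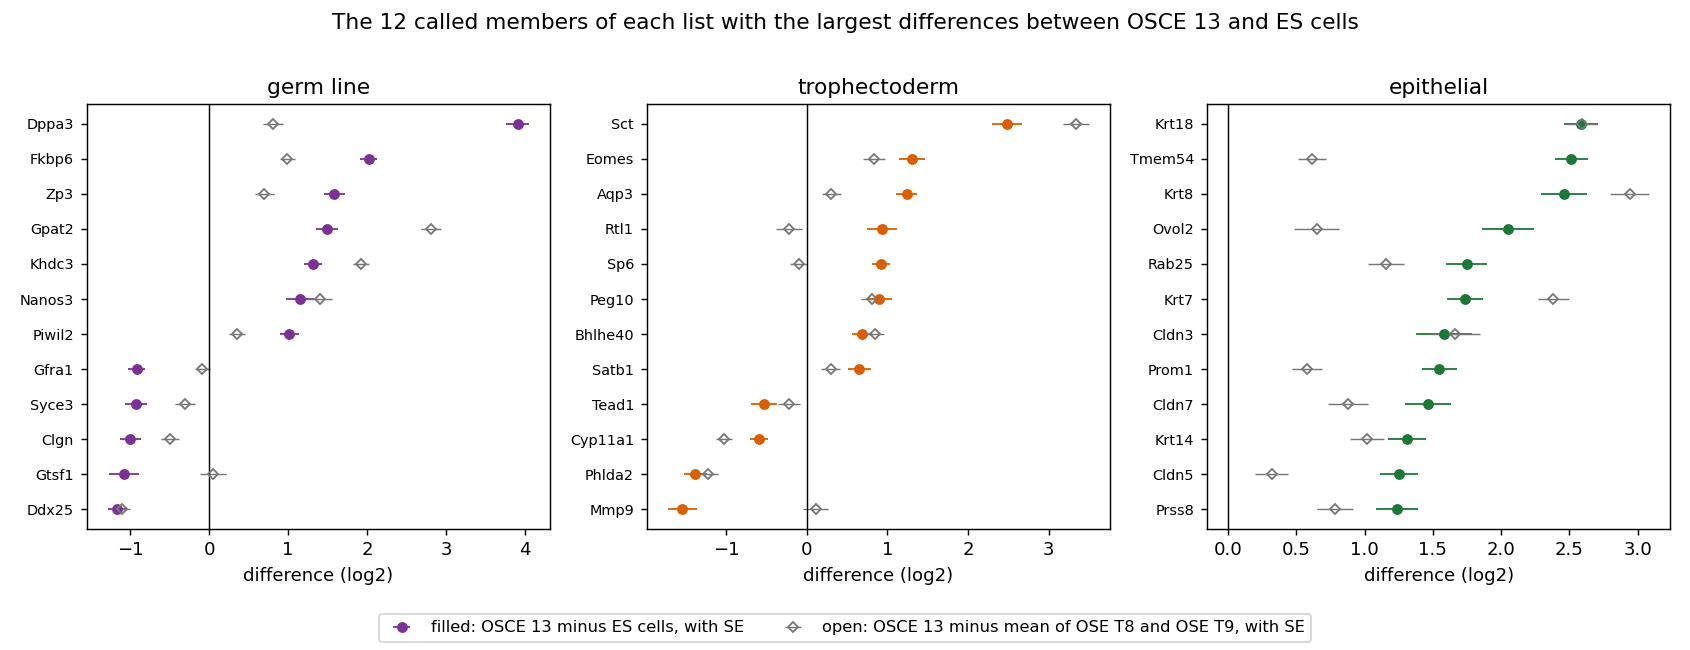
Differences (horizontal axes, log2) with standard errors for the 12 members of each list with the largest differences among those called between OSCE 13 and ES cells. Filled points are OSCE 13 minus ES cells and open points OSCE 13 minus the mean of OSE T8 and OSE T9. Dppa3, Krt18, Tmem54 and Sct stood farthest above the ES cells.

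Most epithelial genes that were called rose. Of 94 tested, 32 were higher in OSCE 13 (against 9.78% of all genes), 6 were lower (against 9.67%) and 56 were not called. The median difference was 0.18, against -0.01 over all genes. By role, 9 of 27 adhesion genes and claudins were higher and 0 lower, and 9 of 20 desmosomal genes and keratins were higher and 3 lower. Of 13 regulators of transcription and splicing, 5 were higher and 1 lower, of 15 polarity genes 3 and 1, and of 19 proteases and surface proteins 6 and 1. With 1 array left out, epithelial calls numbered 25 without ES replicate 1, ES replicate 2 or OSCE 13 replicate 1 and 28 without OSCE 13 replicate 2. The call of 18 of the 32 higher and 1 of the 6 lower members held under every alternative and with each array left out. Against the OSE lines, 34 were higher in OSCE 13 and 4 lower, and 24 were higher in both contrasts.

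Keratins, the intermediate filaments of epithelia, included the largest rise. Krt18 (chromosome 15) was at 6.09 and 6.23 in ES cells and at 8.76 and 8.72 in OSCE 13, a rise of 2.58 ± 0.13 or 5.99-fold (adjusted p = 2.11e-09). Its partner Krt8, the neighbouring gene, was at 7.57 and 7.51 against 9.90 and 10.10, a rise of 2.46 ± 0.17 or 5.50-fold (adjusted p = 7.73e-08). The pair form the first keratin filaments of the embryo. In OSE T9, the lowest pluripotent group for both, they were at 5.74 and 5.47 (Krt18) and 6.37 and 5.84 (Krt8), and in OSCE 8, the one group above OSCE 13, at 9.09 and 9.08 (Krt18) and 10.89 and 11.25 (Krt8). Krt7 (chromosome 15), of simple ducts and trophoblast, went from 7.03 and 6.88 to 8.74 and 8.65, a rise of 1.74 ± 0.13 or 3.34-fold (adjusted p = 2.47e-07). Unlike Krt8 and Krt18 it was highest in OSCE 13 of all groups, with a mean of 5.96 in OSCE 8. Krt14 and Krt19, genes near each other on chromosome 11, were not detected in ES cells and were at least 1.86-fold and 1.88-fold higher in OSCE 13. Krt17 and Krt42, neighbours on the same chromosome, rose by 0.57 ± 0.14 and 0.53 ± 0.12, members of one sequence family, whose probes could share signal. Krt17 lost its call without ES replicate 1 (adjusted p = 0.0591) or OSCE 13 replicate 1 (adjusted p = 0.0762). Dsp (chromosome 13), the desmoplakin that ties keratin to desmosomes, went from 6.10 and 6.04 to 7.23 and 7.16, a rise of 1.12 ± 0.15 (adjusted p = 9.99e-05). Lad1, of basement membrane anchorage, rose by 0.45 ± 0.14, a call lost without ES replicate 1 (adjusted p = 0.253) or either OSCE 13 array (adjusted p = 0.139 and 0.0925). The integrin Itga6 fell, from 9.21 and 9.26 to 8.31 and 8.44 (difference -0.86 ± 0.13, adjusted p = 0.000252). Its partner Itgb4 (-0.53 ± 0.17) and the plakophilin Pkp3 (-0.48 ± 0.13) were lower, calls that each single array left out ended, with adjusted p from 0.0524 to 0.262.

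The promoters of 3 keratins, of Cldn3 and of the regulator Ovol2 are shown as examples from different roles. They were chosen after the values were seen, and other members with large rises, such as Tmem54 and Rab25, are not shown. Capitals mark matches to the same letters on either strand; adjoining or overlapping matches run together, as in Cldn3, where CAGGTG, the reverse strand of CACCTG, shares a base with GCCNNNGGC.
Krt8, chr15:102004293-102004592, minus strand: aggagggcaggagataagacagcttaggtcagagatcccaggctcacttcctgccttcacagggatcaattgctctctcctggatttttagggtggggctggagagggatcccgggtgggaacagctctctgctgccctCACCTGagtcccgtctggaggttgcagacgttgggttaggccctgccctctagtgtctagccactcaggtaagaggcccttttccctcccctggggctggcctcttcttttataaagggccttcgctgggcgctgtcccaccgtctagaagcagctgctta
Krt18, chr15:102027966-102028265, plus strand: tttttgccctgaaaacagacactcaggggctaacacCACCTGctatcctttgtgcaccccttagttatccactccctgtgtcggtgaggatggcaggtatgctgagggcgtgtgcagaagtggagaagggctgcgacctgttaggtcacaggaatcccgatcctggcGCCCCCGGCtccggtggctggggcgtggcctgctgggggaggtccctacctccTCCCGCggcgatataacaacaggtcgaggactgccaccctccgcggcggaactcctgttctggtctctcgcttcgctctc
Krt7, chr15:101412153-101412452, plus strand: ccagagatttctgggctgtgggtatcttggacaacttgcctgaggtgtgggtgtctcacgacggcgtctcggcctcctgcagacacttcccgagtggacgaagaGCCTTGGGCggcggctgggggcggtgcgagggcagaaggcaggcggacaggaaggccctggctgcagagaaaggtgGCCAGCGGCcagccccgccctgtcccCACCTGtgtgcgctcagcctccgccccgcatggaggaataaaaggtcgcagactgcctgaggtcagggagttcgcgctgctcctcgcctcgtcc
Cldn3, chr5:134985964-134986263, plus strand: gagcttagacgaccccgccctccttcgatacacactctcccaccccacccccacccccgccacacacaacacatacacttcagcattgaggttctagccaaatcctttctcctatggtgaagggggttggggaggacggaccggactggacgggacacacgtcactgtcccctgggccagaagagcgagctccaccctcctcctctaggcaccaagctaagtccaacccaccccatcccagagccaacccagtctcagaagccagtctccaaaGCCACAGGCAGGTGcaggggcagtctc
Ovol2, chr2:144331313-144331612, minus strand: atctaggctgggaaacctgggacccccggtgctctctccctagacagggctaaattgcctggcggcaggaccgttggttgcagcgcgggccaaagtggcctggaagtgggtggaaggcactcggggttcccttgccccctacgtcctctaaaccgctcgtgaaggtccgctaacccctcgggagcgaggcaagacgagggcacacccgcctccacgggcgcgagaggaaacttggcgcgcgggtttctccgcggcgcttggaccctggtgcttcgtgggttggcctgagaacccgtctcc
Ovol2 held none of the letters searched, and the other promoters shown held CACCTG, the E-box read by the epithelial repressors ZEB and SNAI. Over the lists, CACCTG was in 14 of the 28 promoters found for 23 of the 32 higher epithelial genes, in 34.0% of those of epithelial genes not called, in 18.6% of those of all autosomal genes tested and in 20.5% of all autosomal promoters. GCCNNNGGC, read by AP-2 factors, was in 28.6%, 34.0%, 24.1% and 16.7% of the same sets. Of the 5 promoters found for the lower epithelial genes, 2 held CACCTG and 3 held GCCNNNGGC. In the germ line list CACCTG was in 38.5% of the promoters of higher genes and 33.3% of those of lower genes. ACCGGTT, the grainyhead-like site, was in 0 of the 28 promoters and in 1.03% of all autosomal promoters. Of 22 mesenchymal factors, the list that holds the ZEB and SNAI genes, 4 were higher and 4 were lower. The shares of all genes were 9.78% and 9.67%, and the median difference of the list was 0.005. The 4 higher members are not named here. Tgfb1, a growth factor that drives the mesenchymal state, was 1 of the 4 lower members. It was at 6.18 and 6.18 in ES cells and not detected in OSCE 13, at least 2.26-fold lower (adjusted p = 1.86e-05).

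Among adhesion genes, the claudins, which seal tight junctions, made up 4 of the 9 that rose. Cldn3 (chromosome 5) was at 4.56 and 4.98 in ES cells, detected on 1 of 2 arrays, and at 6.30 and 6.40 in OSCE 13, a rise of 1.58 ± 0.21 (adjusted p = 6.08e-05). It was near background in all other groups, between 4.23 and 5.38. Its neighbour Cldn4 was bright already, at 9.96 and 9.78, and rose by 0.75 ± 0.15 to 10.64 and 10.60. Cldn7, detected on 1 of 2 ES arrays, and Cldn5, better known from endothelium, rose by 1.46 ± 0.17 and 1.25 ± 0.14. Cdh1 (E-cadherin), the defining adhesion molecule, was not called, at 8.52 and 9.07 in ES cells and at 8.49 and 8.71 in OSCE 13 (difference -0.20 ± 0.19, adjusted p = 0.562), with 4.36 to 4.55 on the MEF arrays. Also higher were Marveld3 (0.61), Cdh3 (0.58), Tjp3 (0.56) and Nectin3 (0.45), each lost without at least 1 of the arrays. Marveld3 was lost without ES replicate 2 (adjusted p = 0.0804), Tjp3 without ES replicate 1 (adjusted p = 0.0575) or OSCE 13 replicate 2 (adjusted p = 0.108), Cdh3 without any but ES replicate 2 (adjusted p from 0.0703 to 0.247) and Nectin3 without any 1 array (adjusted p from 0.0678 to 0.109).

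Among regulators, Ovol2 (chromosome 2), a zinc finger factor that holds cells epithelial, was not detected in ES cells, at 4.52 and 4.81, and was at 6.67 and 6.76 in OSCE 13. It was at least 3.41-fold higher (adjusted p = 2.02e-06), although a second, dimmer probe differed by -0.13. The arrays of the other 4 iPS lines lay between 5.84 and 6.44, above the ES cells and below OSCE 13. Esrp2 and Esrp1, which set epithelial splicing, rose by 0.64 ± 0.13 and 0.52 ± 0.13, Grhl2, a grainyhead-like activator, by 0.49 ± 0.12 and the ETS factor Elf3 by 0.53 ± 0.16. Esrp1 and Grhl2 lost their calls without ES replicate 1 (adjusted p = 0.125 and 0.0613) or OSCE 13 replicate 1 (adjusted p = 0.119 and 0.0735), and Elf3 without ES replicate 1 or 2 or OSCE 13 replicate 2 (adjusted p from 0.0609 to 0.209). Klf4, a reprogramming factor that also serves epithelia, differed by -0.61 ± 0.18, lost without ES replicate 2 (adjusted p = 0.239) or OSCE 13 replicate 1 (adjusted p = 0.224).

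Of the polarity genes, Rab25 (chromosome 3), a GTPase of recycling to the apical side, went from 7.21 and 7.28 to 8.98 and 9.01, a rise of 1.75 ± 0.15 or 3.36-fold (adjusted p = 9.82e-07), above every other group. Pard3 (0.58 ± 0.19) and the sorting adaptor Ap1m2 (0.46 ± 0.11) were higher and the kinase Prkcz (-0.47 ± 0.15) lower. Pard3 lost its call without either ES array or OSCE 13 replicate 1 (adjusted p from 0.138 to 0.415), Ap1m2 without ES replicate 2 (adjusted p = 0.117) or OSCE 13 replicate 2 (adjusted p = 0.065), and Prkcz without any 1 array (adjusted p from 0.0838 to 0.183). Among surface genes, Tmem54 went from 5.55 and 5.45 to 7.99 and 8.04, a rise of 2.51 ± 0.12 (adjusted p = 1.78e-09), with OSE T8 close to OSCE 13 at 8.11 and 7.93. Prom1 (CD133), of membrane protrusions, rose by 1.55 ± 0.13 (adjusted p = 5.92e-07) and Prss8, a membrane protease of barrier epithelia, by 1.24 ± 0.15 (adjusted p = 3.72e-05). Sdc4, Myo5c and Prom2 were higher by 0.51, 0.53 and at least 1.4-fold, and Spint1 differed by -0.46. Sdc4 lost its call without ES replicate 2 (adjusted p = 0.077) or OSCE 13 replicate 1 (adjusted p = 0.0504), and Myo5c without any 1 array (adjusted p from 0.0728 to 0.236). Prom2 lost it without either ES array or OSCE 13 replicate 1 (adjusted p from 0.0767 to 0.142), and Spint1 without either ES array or OSCE 13 replicate 2 (adjusted p from 0.0536 to 0.132).

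Of the 32 higher epithelial genes, 12 lay above all 14 other arrays (37.5%, against 27.9% of all genes that were higher), among them Krt7, Ovol2, Cldn3, Cldn5, Esrp2 and Rab25. All MEF arrays lay below OSCE 13 in 29 of the 32, against 913 of all 1529 higher genes, so these shares are not like for like. The summed linear level of the 94 genes was 39476 and 40029 on the ES arrays, 42632 and 42717 on the OSCE 13 arrays and 35457 to 36855 on the OSE arrays.

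Of the members called in both contrasts, 14 lay on opposite sides of the ES cells in OSCE 13 and on every OSE array. They were Sct, Gpat2, Krt7, Khdc3, Smc1b, Dsp, Krt19, Nanos3, Tex19.2, Lad1, Elf3, Bhlhe40 and Sdc4, above the ES cells in OSCE 13, and Cyp11a1, below them. Krt19 was detected on no ES array and Nanos3 on 1 of 2, and neither was detected on an OSE array. The side of the ES cells on which the OSE arrays lay is therefore not measured for Krt19 and Nanos3. The ES cells lay on other slides, so the side of the ES cells was read across slides for every member. Only the difference between OSCE 13 and the OSE lines was within slides. The rule was applied to members of the lists only, so whether 14 is many beside all genes was not tested.

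**Figure D4:**
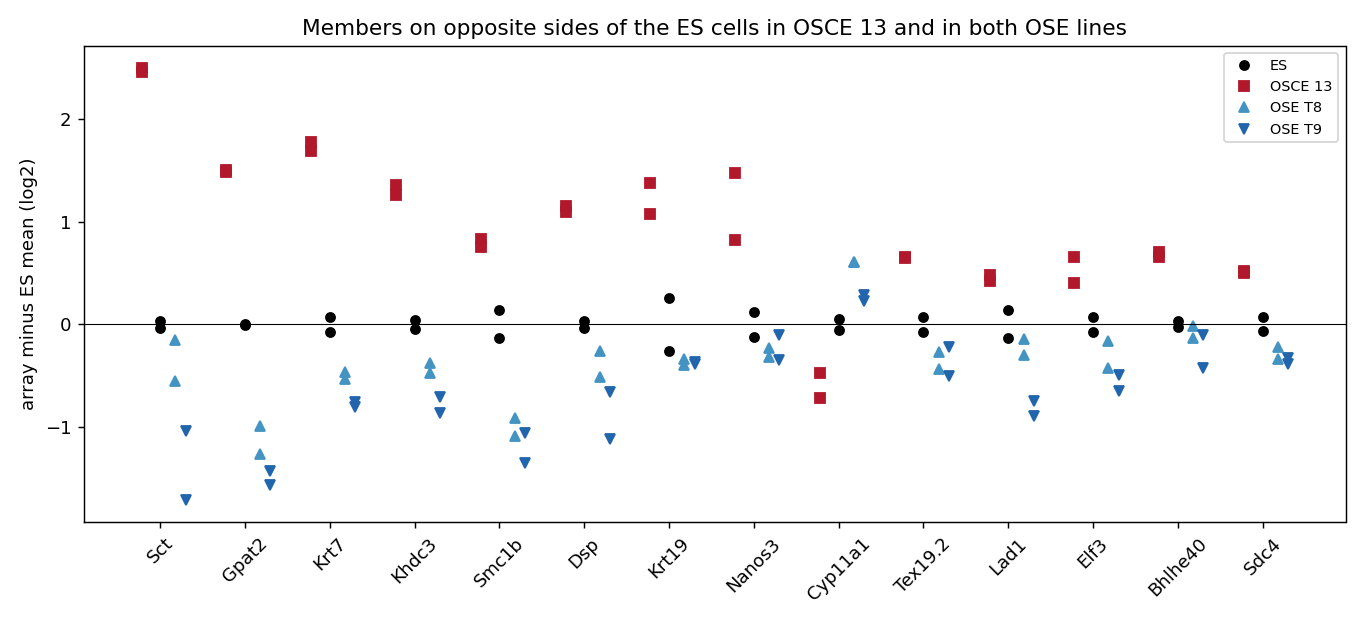
Difference of each array from the ES mean (vertical axis, log2) for the 14 members whose OSCE 13 arrays and OSE arrays lie on opposite sides of the ES cells. Krt19 and Nanos3 were at background on the OSE arrays and on at least 1 ES array. Sct stood at 2.48 above the ES mean in OSCE 13 and at -0.86 in the OSE lines.

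Bulk RNA cannot tell fewer cells of a type from less RNA per cell, and feeder fibroblasts were present in each culture. Of 35 fibroblast and matrix genes, 12 were higher in OSCE 13 than in ES cells and 3 lower, and their summed linear level was 70450 and 63813 on the ES arrays, 74814 and 70570 on the OSCE 13 arrays and 172880 to 179224 on the MEF arrays. The median difference of that list was 0.21, and only 1 called gene in it differed at least 2-fold. Against the OSE lines, 8 of these genes were higher in OSCE 13 and 13 lower, with a median of -0.17. Thy1, a surface protein of fibroblasts and far above that list's median, was at 10.32 and 10.08 in ES cells. It was at 11.76 and 11.53 in OSCE 13 and 12.25 to 12.38 in MEFs. Of all 1529 genes higher in OSCE 13, 913 were lower on all 4 MEF arrays than on both OSCE 13 arrays. Among the higher members this held for 14 of 15 germ line, 7 of 10 trophectoderm and 29 of 32 epithelial genes. The exceptions were Gdf9; Ly6a, Satb1 and Tead2; and Cdh3, Krt14 and Pard3. Of 14 macrophage genes, 4 were higher and 2 lower, with summed levels of 4124 and 4252 in ES cells and 3955 and 3919 in OSCE 13. Of 16 primitive endoderm genes, 4 were higher and 2 lower, of 7 neural genes 1 and 2, and of 31 pluripotency genes 3 and 8. Pou5f1 was at 11.50 and 11.47 in ES cells and at 11.78 and 11.51 in OSCE 13, Sox2 at 8.22 and 7.93 against 8.12 and 7.96, and Nanog at 11.86 and 11.99 against 11.51 and 11.72, none of them called. Dimmer probes of Nanog and Sox2 differed more, and the mean of all probes was called for both, at -0.67 (adjusted p = 0.000225) and -0.35 (adjusted p = 0.0463). Esrrb was at 11.83 and 11.81 against 11.37 and 11.25, lower in OSCE 13 (difference -0.51 ± 0.11, adjusted p = 0.00353), a call that the mean of its probes did not give (difference -0.28, adjusted p = 0.0548).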

How the data were processed

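Total RNA was measured on 16 arrays. The deposited raw table holds linear probe signal intensity, written by BeadStudio 3.2.6 with normalization off, per the file headers. Its deposited detection score is a fraction, 1 minus a detection p-value, per the file headers; the authors' deposited series matrix holds intensity normalized between arrays by a method not given in the sources used here. The matrix's probe names could not be paired with genes, so it served only for counts of probes.

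Raw signal was background-corrected with limma 3.58.1 in R 4.3.3 (normal-exponential model on detection p, offset 16), quantile normalized and put on log2. Targets were brought to current symbols, 16079 of 34325 by symbol and 6654 by synonym, with 11592 kept as named. Each gene was represented by its brightest probe and kept if that was detected (p under 0.01) on at least 2 arrays, which left 15635 of 32083 genes. A fit with 1 mean per group over all 16 arrays (8 residual and 6.23 prior degrees of freedom) gave moderated tests, adjusted by Benjamini and Hochberg over all genes. The fit was tested on simulated data drawn for each array alone, with no slide effect and no shared deviation of same-numbered arrays. That test therefore could not show how the fit handles either. The number of arrays limits the precision. A gene detected on no array of 1 group is given a bound ("at least"), the bright group's mean over the dim group's mean of, per array, the higher of its own level and the lowest detected level.

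Members and lists were chosen with earlier results of these data known. Named genes were up to 12 called members per list, by size of difference, the defining members, the 8 largest rises and falls, up to 4 called members of each other list, the reprogramming factors and up to 8 called members with the largest difference from the OSE lines; other members were named after their values were seen. Predicted and clone names were passed over, except 4930432K21Rik, named to complete a count. One epithelial member is counted but not reported singly here. Promoters come from RefSeq (GRCm38.p6). Alternatives were offset 50, no correction, median scaling, no filter, the mean of all probes, only the arrays compared, slide as a random block, a replicate block, and each array left out.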

Additional observations from a re-analysis of the deposited data

Results flagged for a closer look

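For 14 members the difference from ES cells ran in opposite directions in OSCE 13 and in the OSE lines on every array. The ES cells lay on other slides, so these directions were read across slides. The difference between OSCE 13 and the OSE lines was called by limma within the slides they share. On the log2 scale, OSCE 13 exceeded the OSE lines by 3.34 in Sct, by 2.81 in Gpat2, by 2.38 in Krt7 and by 1.92 in Khdc3. It exceeded them by 1.76 in Dsp. Smc1b, Krt19 and Nanos3 were detected on no OSE array, so their fitted differences of 1.89, 1.6 and 1.40 are no measured sizes, and OSCE 13 was at least 2.93-fold, 1.83-fold and 2.00-fold higher. For Krt19, detected on no ES array, and Nanos3, detected on 1 of 2, the side of the ES cells on which the OSE arrays lay is not measured. The excess was 1.01 in Tex19.2, 0.97 in Lad1, 0.96 in Elf3, 0.85 in Bhlhe40 and 0.82 in Sdc4. Cyp11a1 was the one member on the other side, with a difference of -1.03. The adjusted p of these differences ran from 1.58e-09 for Gpat2 to 0.000138 for Elf3. The members were picked for a called difference from the OSE lines, so these values are no separate support. The rule was applied to the 3 lists only, and no share over all genes is given. No group had the 4 arrays needed to look for an outlying array.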

How the results depend on the processing

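For 180 single-gene differences between OSCE 13 and ES cells, no alternative turned a direction of a called gene. Leaving out 1 array ended the most calls. Epithelial genes called ranged from 25 to 28 with 1 array left out (38 with all arrays), germ line genes from 20 to 27 (31), trophectoderm genes from 11 to 13 (16), and all genes from 2059 to 2084 (3041). Genes called between OSCE 13 and the OSE lines ranged from 1743 to 3489 with 1 array left out (3154 with all) and numbered 1933 when only those 6 arrays were fitted. A group left with 1 array is assumed to vary like the others. Median scaling gave 2144 calls against ES cells, 2120 of them shared with the same direction, and ended 23 of the single-gene calls. The mean of all probes ended 8 and added 6, among them the testis tubulin Tuba3a (difference 0.74, adjusted p = 0.000552). The main fit did not take the replicate numbers as pairs, although same-numbered arrays deviated together. Their correlation was over 0.1 in 27 of 28 group pairs (lowest 0.0982, highest 0.430) and 0.396 between ES cells and OSCE 13. A replicate block gave 3822 calls against ES cells and 31, 20 and 44 germ line, trophectoderm and epithelial calls, Gata2 and Arid3a (adjusted p = 0.0348 and 0.0465) among those added, and 4026 calls against the OSE lines. With slide as a random block (correlation 0.196), 3063 genes were called against ES cells. The authors' normalized table, set beside the raw table after the data were seen, gave 3453 probes called against 3607 without a filter. It could not be tried gene by gene, since its probes could not be paired with genes. The number of arrays and signals near background limit what the dim genes can show.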

Other observations

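The genes with the largest rises in OSCE 13 over ES cells lay outside the lists. Ipp, an actin-binding kelch protein, was at 7.08 and 6.77 in ES cells and at 11.54 and 11.58 in OSCE 13 (difference 4.64 ± 0.18, adjusted p = 1.85e-10). Fermt1, a kindlin that couples integrins to actin in epithelia, was at 4.96 and 4.92 against 8.98 and 8.79, detected on 1 of 2 ES arrays (difference 3.95 ± 0.13, adjusted p = 3.57e-11). Its ES level was near background, so the size of the difference is uncertain. It was lower in the OSE lines than in OSCE 13, between 6.32 and 7.50. Rcsd1 was not detected in ES cells and was at least 5.84-fold higher in OSCE 13, with 4.65 to 4.96 on the OSE arrays. Nr1h5, a nuclear receptor, was at least 8.09-fold higher (adjusted p = 5.41e-09), and the OSE arrays lay between 8.06 and 8.39. A second, dimmer probe of Nr1h5 differed by 1.40 where the one used differed by 3.65. Nr5a2, a nuclear receptor that can activate Pou5f1, was at 8.70 and 8.79 in ES cells and at 6.44 and 6.53 in OSCE 13 (difference -2.26 ± 0.12, adjusted p = 3.94e-09). A second probe of Nr5a2, near background in both groups, differed by 0.09. Of the pluripotency genes Fbxo15 also fell, by a difference of -0.91 ± 0.13, and Sall4 rose by 0.80 ± 0.13.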
